A study of Mus musculus with 8 samples.

Results

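The peaks annotated intergenic are those YTHDF3-binding peaks of mouse embryonic fibroblasts (MEFs) that the deposited annotation places outside every gene. They were chosen by the start of that annotation alone, without regard to their height or their response to starvation. They made up 2988 of the 87940 peaks deposited in 4 lists, with 562 and 818 of them in the 2 normal lists and 806 and 802 in the 2 starved lists. The MEFs were wild type, of the C57BL/6 strain, isolated from embryos 13.5 days post-coitum and used at passages 5 to 6. Normal cells were left untreated in serum-containing medium, and starved cells were kept in nutrient-deprived medium for 2 h. In each of 2 replicates per condition, RNA bound to the endogenous YTHDF3 protein was immunoprecipitated (IP) with an anti-YTHDF3 antibody and sequenced beside an input library made with no antibody, the molecule being given as poly(A) RNA. MEFs are a primary population grown from embryonic tissue and can hold several cell types. No label says whether the replicates came from separate embryos or cultures, so p-values measure only the spread between these samples. Each list holds 1 IP library against an input, taken here as the one with the same condition and number.

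After the study's thresholds for a target (an IP/input fold of 2 or more, p under 0.0001), 2955 of the 2988 peaks remained, 555 and 808 in normal and 798 and 794 in starved cells, always given in the order of replicates 1 and 2. The 33 peaks left out all failed the p threshold and none failed the fold. The kept peaks annotated intergenic held 173566 and 264528 IP reads in normal cells, over 279 and 453 kb, and 433531 and 464393 IP reads in starved cells, over 430 and 468 kb. Read sums and densities are not scaled for depth, which is unknown because the lists give no reads outside peaks. The other peaks also had more IP reads per kb in starved cells (1256 and 1305) than in normal cells (928 and 1117). A peak that is missing from a list says nothing of the RNA below the calling threshold. Of 10 fibroblast markers, 6 had a peak of any annotation named for them in some list, 2 of them in all 4 lists. No peak was named for Col1a1, Vim, S100a4 and Fap, nor for any of 8 markers of blood, epithelial, endothelial and pluripotent cells. The deposited name is that of the nearest start site, so a peak on a marker gene can carry another name. A peak is not a measure of expression, so these markers check the cell type only in part.

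YTHDF3 is a cytoplasmic reader of N6-methyladenosine (m6A), a mark that METTL3 and its partners place on adenosines of mRNA within a consensus whose common core is GGAC. The mark is known to be densest around stop codons, in 3′ UTRs and in long internal exons, and its readers bear on the translation and decay of the RNA. Whether a peak counts as intergenic depends on the gene models used, since long 3′ UTRs, unlisted exons and transcribed retroviral elements can all lie outside a compact set of models.

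Windows of 200 bp from peaks that the results below turn on are shown first, read from the RefSeq copy of the mouse genome GRCm38 (mm10) on the strand of the named gene, with capitals at every GGAC. Except for Zfp469, each is the window the peak caller scored highest in a peak annotated intergenic on that gene, taken from the peak with the most IP reads per kb whose window holds GGAC and no UTR. The Ahnak2 window (chr12:112778001-112778200, minus strand) is the coding sequence with the most IP reads per kb. The Rnf213 window (chr11:119440201-119440400, plus strand) and the BC034090 window (chr1:155241611-155241810, minus strand) are coding sequence of the genes with the most peaks. The Zfp469 window (chr8:122266076-122266275, plus strand) was taken near the center of the peak with the most IP reads of all. The Gm21451 window (chr14:69445531-69445730, plus strand) stands in the region whose IP/input ratio was higher in starved cells. Coding sequence of the gene models covers 106 of its 200 bases, and whether its GGAC lies in an exon was not checked. The Gm47204 window (chr9:44479391-44479590, minus strand), in an exon of 2 overlapping lncRNA genes, and the Nfatc4 window (chr14:55835721-55835920, plus strand), outside genes past the end of Nfatc4, belong to regions with a lower fold in starved cells.
Ahnak2: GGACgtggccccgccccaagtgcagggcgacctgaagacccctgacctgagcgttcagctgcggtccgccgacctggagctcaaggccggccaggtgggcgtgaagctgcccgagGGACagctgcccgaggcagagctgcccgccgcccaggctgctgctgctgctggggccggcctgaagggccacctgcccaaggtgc
Rnf213: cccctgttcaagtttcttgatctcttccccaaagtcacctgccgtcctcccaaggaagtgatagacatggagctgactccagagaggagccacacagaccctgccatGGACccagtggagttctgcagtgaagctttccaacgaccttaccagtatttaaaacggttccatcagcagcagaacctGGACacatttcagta
BC034090: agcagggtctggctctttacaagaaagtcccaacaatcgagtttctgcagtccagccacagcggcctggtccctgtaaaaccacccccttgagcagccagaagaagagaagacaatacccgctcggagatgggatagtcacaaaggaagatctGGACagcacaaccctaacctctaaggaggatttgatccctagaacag
Zfp469: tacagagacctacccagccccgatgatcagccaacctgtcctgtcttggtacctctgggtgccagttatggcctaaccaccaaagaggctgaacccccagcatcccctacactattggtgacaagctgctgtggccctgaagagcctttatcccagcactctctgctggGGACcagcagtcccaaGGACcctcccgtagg
Gm21451: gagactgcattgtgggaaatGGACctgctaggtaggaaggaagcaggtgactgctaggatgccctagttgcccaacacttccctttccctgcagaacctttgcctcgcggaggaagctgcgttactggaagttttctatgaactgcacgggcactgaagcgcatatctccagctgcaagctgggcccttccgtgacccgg
Gm47204: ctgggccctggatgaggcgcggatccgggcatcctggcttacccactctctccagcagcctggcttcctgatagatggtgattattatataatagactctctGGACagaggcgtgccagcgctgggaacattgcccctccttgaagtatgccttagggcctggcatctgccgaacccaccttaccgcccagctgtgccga
Nfatc4: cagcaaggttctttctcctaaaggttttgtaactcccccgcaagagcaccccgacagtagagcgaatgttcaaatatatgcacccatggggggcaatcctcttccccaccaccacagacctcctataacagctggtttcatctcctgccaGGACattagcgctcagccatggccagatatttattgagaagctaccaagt
The Ahnak2, Rnf213 and Zfp469 windows each held 2 GGAC on the gene's strand and the other 4 windows held 1 each. GC content ran from 50.0% in the Nfatc4 window to 73.0% in the Ahnak2 window. None of the 7 windows held AATAAA, the canonical polyadenylation signal, on that strand.

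Most of these peaks were not intergenic by a wider set of gene models. Placed on the GENCODE annotation of the same genome (vM21), 1525 of the 2955 peaks (51.6%) overlapped an exon of a protein-coding gene, 197 an exon of a long noncoding RNA (lncRNA), 66 an exon of a pseudogene and 17 an exon of an unreviewed transcript. A further 662 peaks (22.4%) lay outside genes and within 10 kb past the end of one, 290 (9.81%) in introns, 92 within 5 kb before a gene start and 106 (3.59%) elsewhere. In all, 2574 peaks were on a GENCODE exon or had their center within 10 kb past the end of any gene. This count also takes in peaks in an intron of one gene that lie past the end of another. The share so counted was 88.1% and 86.8% in normal cells and 88.2% and 85.6% in starved cells, 87.2% ± 1.22 over the lists (SD, n = 4). The peaks are therefore called peaks annotated intergenic here. The lists carry no strand, so an exon on either strand counted.

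**Figure D1:**
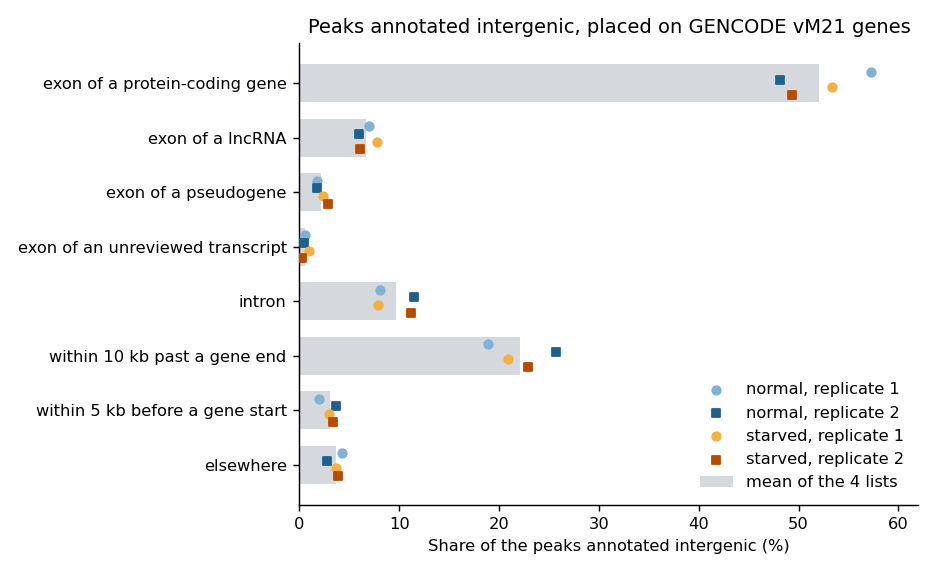
Share of the kept peaks annotated intergenic (%) in each class of place on GENCODE vM21 gene models, with a point for each of the 4 lists and a bar for their mean. Exons of protein-coding genes held between 48.1% and 57.3% of the peaks in every list, and sequence within 10 kb past a gene end between 18.9% and 25.7%.

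RefSeq exons of any kind overlapped 60.8% ± 3.47 of the peaks (SD, n = 4 lists), and exons of curated RefSeq transcripts 25.7% ± 0.749. On neither annotation's exons lay 648 peaks, 21.5% ± 4.86. Of the 1525 peaks on protein-coding exons, 412 overlapped coding sequence and 1059 overlapped UTR alone. The gene name deposited with the peak, which is that of the nearest start site, was the gene of the exon in 581 of the 1525 (38.0% ± 1.73 over the lists). The peaks on Rnf213, for example, carried the names A930037H05Rik and Mir1932, and those on Ahnak2 the names BC022687 and Pld4. Peaks on protein-coding exons had a median of 84 IP and 17 input reads, and peaks past gene ends a median of 32 IP and 2 input reads. The median log2 IP/input fold was 1.81 on protein-coding exons, 1.91 on lncRNA exons, 2.10 past gene ends and 2.66 on pseudogene exons. A fold against 3 or fewer input reads was computed against 3 reads, which understates it, and this held for 25.2% of the peaks on protein-coding exons, 59.7% past gene ends and 63.6% on pseudogene exons.

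Outside GENCODE genes lay 860 of the peaks, and 662 of them (77.0%) were within 10 kb past a gene end, whereas 18.7% of the 1504 Mb outside genes is that near to an end. Their median distance past the end was 2521 bp, and 550 followed a protein-coding gene. By kb of distance, the first kb held 48 peaks, the second 215, the third 129, and the tenth 12. The deposited annotation has a class of its own for peaks beside a transcript end, which takes peaks in the first kb away from this class. Of the 662 peaks, 274 (41.4%) overlapped a RefSeq exon, and for 200 of those the exon belonged to the same gene that ended upstream. The most peaks followed Ctnnd1, whose catenin product binds cadherins at cell junctions, with 24 peaks (6, 5, 9 and 4 in normal replicates 1 and 2 and starved replicates 1 and 2). Dyrk1b, a protein kinase gene, was followed by 23 peaks, with 0, 6, 9 and 8 in the same order. Cmklr1, the receptor gene of chemerin, was followed by 20 peaks, with 5, 6, 4 and 5. Dyrk1b thus had no peak in normal replicate 1, while Ctnnd1 and Cmklr1 had peaks in every list.

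**Figure D2:**
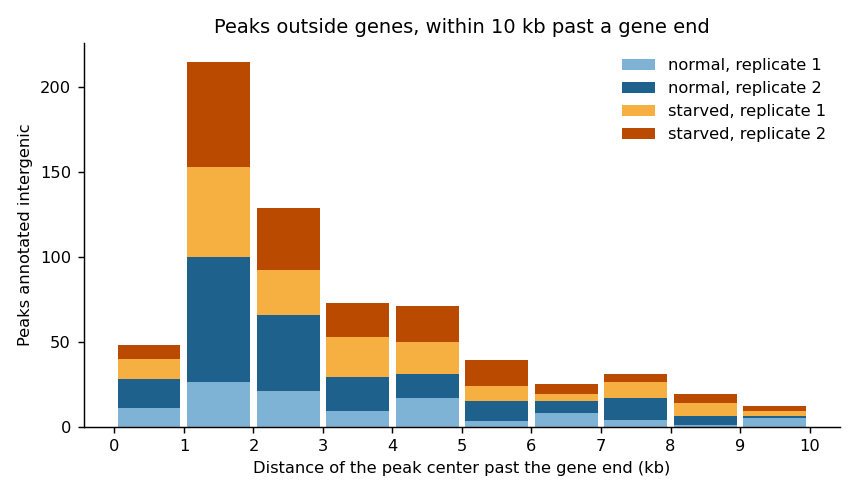
Number of peaks annotated intergenic that lay outside GENCODE genes, by the distance of the peak center past the nearest gene end in bins of 1 kb, stacked by list. The bin from 1 to 2 kb was the fullest with 215 peaks, and the counts fell to 12 in the last bin.

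By exon, the peaks fell on 442 genes, of which 343 were protein-coding and 66 lncRNA genes, and by gene end on 225 genes. Peaks lay on 89 protein-coding genes in all 4 lists. Rnf213, a very large ubiquitin ligase with an ATPase core, carried 112 peaks, all of them on coding sequence, with 23 and 32 in normal and 21 and 36 in starved cells. Its peaks summed to 2189 and 6101 IP reads in normal and 6820 and 9945 in starved cells, over 7.75, 18.47, 12.60 and 22.90 kb. That came to 282 and 330 IP reads per kb in normal and 541 and 434 in starved cells. Both starved values were above both normal ones, the order that the unscaled density of the other peaks also had. BC034090 carried 35 peaks, 34 of them on coding sequence. Shank2, a postsynaptic scaffold gene, carried 29 peaks over its many exons, 24 of them coding. Ahnak2, a giant scaffold gene made of repeated units, carried 25 peaks, all coding, with 11493 and 24300 IP reads in normal and 55529 and 51859 in starved cells. Of the other genes with many peaks, those of Crybg3 (19 of 19) and Stard9 (17 of 18) were mostly coding as well, whereas those of Zfp652 (0 of 21), Tmem245 (0 of 20) and Zbtb20 (0 of 16) were not. The genes here were picked for their number of peaks, so their counts are a description.

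The genes Castor2, Eif4ebp2, Sesn3 and Foxo3 were picked by hand after their values were seen, and nothing about the peaks as a class is read from them. Castor2, an arginine sensor family member upstream of mTORC1, had its peaks deposited under the name Rcc1l (chr5:134142851-134144190), with 151 and 99 IP reads in normal and 645 and 537 in starved cells, over 590, 330, 1150 and 1190 bp. Its input reads were 39 and 39 in normal and 125 and 143 in starved cells, so the groups did not overlap in the IP or in the input. Eif4ebp2, a translation repressor that mTORC1 phosphorylates, had 4699 and 9731 IP reads in normal and 12381 and 12199 in starved cells (chr10:61428491-61434040), over 3780, 5500, 5530 and 5480 bp, under the name Nodal, and normal replicate 1 stood below the other 3 lists. Sesn3, a sestrin gene, carried 16 peaks off coding sequence, with 1 and 3 in normal and 6 in each starved list. Foxo3, a transcription factor gene of autophagy and metabolism, had peaks annotated intergenic on its 3′ UTR exon by GENCODE (chr10:42181761-42186500), with 1476 and 4528 IP reads in normal and 8686 and 8948 in starved cells. That region also held a peak with another annotation in normal replicate 1, and with it the region had 2398 IP reads there. The IP reads of the Foxo3 region did not pass the test between conditions (edgeR quasi-likelihood test over 6531 regions, log2 change 0.70 ± 0.25 SE, adjusted p = 0.564), nor did those of Castor2 (1.5 ± 0.42 SE, adjusted p = 0.510).

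Among noncoding genes, the lncRNA Gm37233 carried 15 peaks, AU020206 carried 13 and Gm14230 carried 11. Of 55 well-known noncoding RNAs, among them Malat1, Neat1, Xist and Meg3, 0 were overlapped by a peak annotated intergenic, with 50 of the names found in GENCODE. The peaks were chosen for an annotation outside genes, which bears on this count, so nothing is read from it, and the lists held 3 kept peaks named for Neat1 and 9 for Xist. The region with the most IP reads lay on Zfp469 (chr8:122259701-122272760), listed as a lncRNA in GENCODE vM21 and as a coding zinc finger gene in RefSeq. It held 27112 and 39759 IP reads in normal and 57795 and 66440 in starved cells, 14.3% of the IP reads of all peaks annotated intergenic.

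A repeat was at the center of 658 of the peaks by the deposited detail, and a CpG island at the center of 276. Long terminal repeat (LTR) elements, the traces of retroviruses, made up 314 of the 658, short interspersed elements (SINE) 163 and long interspersed elements (LINE) 116. The ERV1 family alone made up 157, with RLTR4_MM-int at 70 peaks, MMVL30-int at 31 and MMERGLN-int at 30. The MMVL30-int peaks held 37848 and 263 IP reads in normal and 61932 and 75358 in starved cells, so that normal replicate 2 stood far below the other 3 lists. Most of these reads came from 1 region on chromosome 11 (chr11:86813221-86816270), with 28057 IP reads in normal replicate 1, 49166 and 59149 in starved replicates 1 and 2 and no kept peak in normal replicate 2. The MMERGLN-int peaks held 2327 and 8616 IP reads in normal and 10516 and 11739 in starved cells. Reads of such elements can come from many copies, and how the authors' alignment shared them out is not given in the sources used here.

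Compared with the other peaks of the same lists, peaks annotated intergenic were shorter, held fewer reads and had a somewhat higher IP/input fold. The median log2 fold was 1.91 and 2.00 in normal and 1.82 and 1.89 in starved cells, against 1.63, 1.60, 1.56 and 1.63 for the other peaks in the same order. The difference was 0.30 ± 0.07 (SD, n = 4 lists), higher in 4 of 4 lists, with an exact sign-flip permutation test over the lists giving p = 0.13 (two-sided), the smallest p that 4 lists allow, so no such test could pass 0.05. The fold stood on fewer reads: the median input was 9 and 9 reads in normal and 5 and 9 in starved cells, against 28, 39, 17 and 34 for the other peaks. A fold against 3 or fewer input reads made up 38.7% ± 4.28 of these peaks and 16.9% ± 5.34 of the others. With an input floor of 1 read in place of 3, the difference was 0.68. The median length was 348 bp against 405 bp, and the density 802 ± 230 IP reads per kb against 1152 ± 169, lower in 4 of 4 lists.

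The share of peaks overlapped in the other replicate of the condition was 60.4% and 34% in normal and 53.4% and 50.4% in starved cells. The other peaks had 60.2% and 44.7% in normal and 60.8% and 54.5% in starved cells. The difference of −5.54 ± 4.62 points (SD, n = 4 lists) was close to the spread between lists, with 1 of 4 lists higher (exact sign-flip permutation test, p = 0.25). Where an overlap of 50% of both peaks was asked for, the difference was −12.9 points, lower in all 4 lists (p = 0.13 by the same exact test). Repeat-masked bases made up 16.3% ± 0.560 of the sequence of these peaks and 8.82% ± 0.439 of the others, higher in 4 of 4 lists (exact sign-flip permutation test, p = 0.13). The masked share differed by place, at 11% on protein-coding exons, 18.5% on lncRNA exons, 22.9% past gene ends and 51.9% in the 106 peaks elsewhere.

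Between conditions, the share of kept peaks annotated intergenic moved in opposite directions in the 2 replicates. It was 3.20% and 3.68% in normal and 3.46% and 3.21% in starved cells, a difference of 0.26 points in replicate 1 and −0.47 points in replicate 2. The groups overlapped, and no permutation test of 2 against 2 lists can pass 0.05. Their share of the IP reads in kept peaks was 1.97% and 1.84% in normal and 2.76% and 2.41% in starved cells, so that both starved lists were above both normal ones. The density of these peaks was likewise 623 and 584 IP reads per kb in normal and 1008 and 993 in starved cells. The 3 regions with the most IP reads, on Zfp469, the MMVL30 element and Ahnak2, held 37.5% and 19.98% of the reads of these peaks in normal and 32.1% and 33.4% in starved cells. Without these 3 regions, left out after their values were seen, the share of IP reads was 1.23% and 1.47% in normal and 1.87% and 1.60% in starved cells, and the groups still did not overlap.

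Merging overlapping peaks of all 4 lists (1 bp or more) gave 39979 regions, of which 1374 held only peaks annotated intergenic and 110 held these and others. Of the 1374 regions, 132 (9.61%) were called in all 4 lists, against 16.3% of all regions, and 866 (63.0%) were called in 1 list, against 49.0% of all regions. The 132 regions lay on protein-coding exons in 83 cases, past gene ends in 17, on lncRNA exons in 9 and on pseudogene exons in 3. Among them, the regions with the most IP reads per kb lay on Flna, Ahnak2, Zfp469, Fat1, Lrrc32, Uck2 and Gm21451. Flna, the actin crosslinker filamin A, had 4904 and 5139 IP reads per kb in normal and 8084 and 6939 in starved cells, on a UTR exon (chrX:74249471-74249970). The larger Ahnak2 region (chr12:112777941-112781600) had 3017 and 3651 IP reads per kb in normal and 9267 and 8079 in starved cells. For both, the starved lists were above the normal ones before any scaling of the libraries, as they were for the other peaks as a whole. Fat1, a giant cadherin gene, had 3225 and 2971 IP reads per kb in normal and 4169 and 3462 in starved cells, on a UTR exon with a CpG island (chr8:44934951-44936600). After TMM scaling in edgeR, the log2 IP change was 0.74 ± 0.14 SE for the larger Ahnak2 region, −0.07 ± 0.21 SE for Flna and −0.30 ± 0.24 SE for Fat1, with adjusted p-values of 0.316, 0.978 and 0.862, so the direction of Flna and Fat1 turned with the scaling. Lrrc32, which encodes a receptor that holds latent TGF-beta, had 2717 and 1785 in normal and 3196 and 1849 in starved cells (chr7:98489851-98490330), and its groups overlapped. Uck2, a uridine-cytidine kinase gene, had 1351 and 2051 in normal and 2867 and 3074 in starved cells (chr1:167222801-167226650).

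**Figure D3:**
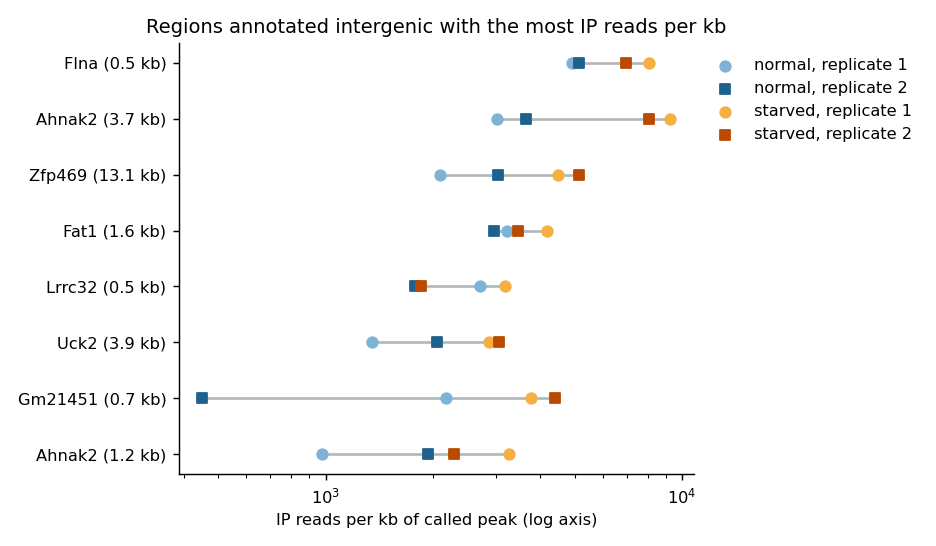
IP reads per kb of called peak (log axis) in the 8 regions annotated intergenic with the highest mean density among the 132 called in all 4 lists, with a point for each list and the region length in parentheses. Both starved points lay above both normal points in every region shown but Lrrc32, with no scaling for depth. The density of all other peaks had the same order, at 928 and 1117 in normal and 1256 and 1305 in starved cells. How many of all regions had that order was not counted. The scaled IP changes of Fat1 and Flna were −0.30 and −0.07 on the log2 scale.

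The 5 regions whose lowest fold over the 4 lists was highest, counting those whose every list held 20 or more IP reads, are given next. The Gm21451 region at chr14:69459301-69459940 had 103 and 115 IP reads in normal and 189 and 111 in starved cells against 0 and 22 input reads in normal and 0 and 0 in starved cells. The region on Pcdh1, a protocadherin gene, had folds of 7.26 and 10.75 in normal and 6.29 and 9.07 in starved cells. Kcnb2, a potassium channel gene, had folds of 15.05 and 8.33 in normal and 7.29 and 7.33 in starved cells on a UTR exon (chr1:15286711-15287520). The olfactory receptor pseudogene Olfr1372-ps1 (chr11:52167151-52168250) had folds of 6.61 and 6.25 in normal and 17.29 and 8.44 in starved cells. The sequence past the end of Hs2st1, a heparan sulfate sulfotransferase gene (chr3:144427861-144428400), had folds of 5.91 and 8.33 in normal and 8.86 and 8 in starved cells. The folds of Kcnb2 were lower and those of Olfr1372-ps1 higher in both starved lists, while the other 3 regions had groups that overlapped. Summed over the called peaks, these regions held 0 to 6 input reads per list, apart from normal replicate 2 of Gm21451 and from Pcdh1, with 37 to 45 in each list. The fold is that of the highest peak alone, which can hold fewer input reads than the region. In normal replicate 2 all peaks on Pcdh1 held 313 IP reads, so its fold of 10.75 rests on fewer input reads than that sum.

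Each region took the highest IP/input fold among its peaks in a list, and a region was called changed where the fold moved at least 1.8-fold the same way in both replicates. By this rule 1 of the 132 regions was higher in starved cells, against 0.367% of the 6531 regions called in all 4 lists, and 2 were lower, against 0.352%. The region that was higher lay on Gm21451, listed as a pseudogene in GENCODE vM21. The 2 that were lower lay on Nsd2, a histone methyltransferase gene, and on the lncRNA gene Gm47204. The Nsd2 region (chr5:33819941-33820980), on a UTR exon at a CpG island, had folds of 5.38 and 7 in normal, both against 3 input reads, and 2.71 and 2.61 in starved cells. Its IP reads were 20 and 21 in normal and 152 and 219 in starved cells, and its input reads 0 and 3 in normal and 24 and 56 in starved cells, over 360, 210, 480 and 650 bp. Both IP and input reads were thus higher in starved cells while the fold was lower. The Gm47204 region (chr9:44477161-44479860) had folds of 11.1 and 9 in normal and 4.67 and 2.92 in starved cells. Its IP reads were 247 and 92 in normal and 918 and 357 in starved cells, beside 40 and 21 input reads in normal and 90 and 85 in starved cells, over 1550, 600, 2470 and 1140 bp. Exons of a second lncRNA gene, C030014I23Rik, on the opposite strand overlap those of Gm47204 here, and the lists carry no strand, so the reads cannot be given to either gene. The region past the end of Nfatc4, a calcium-responsive transcription factor gene, came next (chr14:55835371-55836520), with folds of 6.18 and 7.33 in normal and 3.19 and 4.44 in starved cells. In the other direction came 2 neighbouring regions on a UTR exon of Klf7, a Krüppel-like factor gene, deposited under the name Mir6899. The larger one (chr1:64030471-64032280) had folds of 2.89 and 2.17 in normal and 9.29 and 3.38 in starved cells, and the smaller one (chr1:64032281-64032860) 2.82 and 2.09 in normal and 7.97 and 3.70 in starved cells. By edgeR, the log2 IP change was −1.55 in the larger and −1.39 in the smaller region, and the input change −2.27 and −2.37. Both IP and input reads of Klf7 were thus lower in starved cells while the folds were higher.

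In a test of reads across all 6531 regions called in all 4 lists (edgeR quasi-likelihood test, TMM normalization, Benjamini-Hochberg adjustment), the IP/input ratio of 1 of the 132 regions was higher in starved cells and that of 0 was lower, against 0.0153% and 0% of all regions. At an unadjusted p under 0.05 the counts were 5 and 3 of the 132 regions, beside 82 and 101 of all 6531 regions. The region was that of Gm21451 at chr14:69445381-69446090, the same as by fold. It had 1112 and 185 IP reads in normal and 1813 and 2464 in starved cells, over 510, 410, 480 and 560 bp. Its input reads were 369 and 18 in normal and 1 and 3 in starved cells. The fitted log2 ratio change was 7.29 ± 0.62 SE (edgeR adjusted p = 3.51e-06), a size that rests on the 1 and 3 input reads of the starved lists. The IP reads of this region had a log2 change of 0.89 ± 0.97 SE (edgeR adjusted p = 0.924) and its input reads one of −6.78 ± 1.98 SE (edgeR adjusted p = 0.478). A window at its peak center occurs in 2 identical copies in the genome, on an exon of Gm21451 and on an exon of Loxl2 (chr14:69663911-69664110), a lysyl oxidase family gene. The window of the other Gm21451 region named above likewise has an identical copy on Loxl2 (chr14:69677796-69677995). Loxl2 itself held 0 and 3 kept peaks in normal and 1 and 0 in starved cells, none of them on these copies. The gene that gave the reads is therefore uncertain, and the part of these copies in the ratio change was not tested.

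No change of IP or input reads passed the edgeR threshold in the 132 regions. For IP reads 0 regions were higher and 0 lower, against 0% of all regions in each direction, with a lowest adjusted p of 0.242. At an unadjusted p under 0.05 the IP counts were 11 and 2, beside 285 and 264 of all 6531 regions. For input reads the counts were also 0 and 0, with a lowest adjusted p of 0.214. Unadjusted, the input counts were 7 and 4, beside 270 and 234 of all 6531 regions. How many of all regions DESeq2 called was not counted, so its calls have no share over all regions beside them. DESeq2 called 2 regions with more IP reads in starved cells, at Nfatc4 (adjusted p = 0.000766) and Nsd2 (adjusted p = 0.00341). For input reads DESeq2 called Castor2 (adjusted p = 0.0422) and Nsd2 (adjusted p = 0.0227) higher and the Gm21451 region lower (adjusted p = 0.00026). The Nfatc4 region had 23 and 22 IP reads in normal and 230 and 193 in starved cells, over 220, 250, 760 and 960 bp, beside 2 and 3 input reads in normal and 32 and 29 in starved cells. Its log2 change was 2.52 ± 0.36 SE in the IP and 3.67 ± 0.62 SE in the input (edgeR adjusted p = 0.242 and 0.214). The 11 regions with an unadjusted p under 0.05 for more IP reads were 4 on Ahnak2 and 1 each on Gm37233, Kif26b, Zfp652, Nsd2, Castor2 and Gse1 and past Nfatc4, and the 2 for fewer were on Klf7 and Ago3, which encodes an Argonaute protein. They are given as values below the threshold, with the genes read off after the test.

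**Figure D4:**
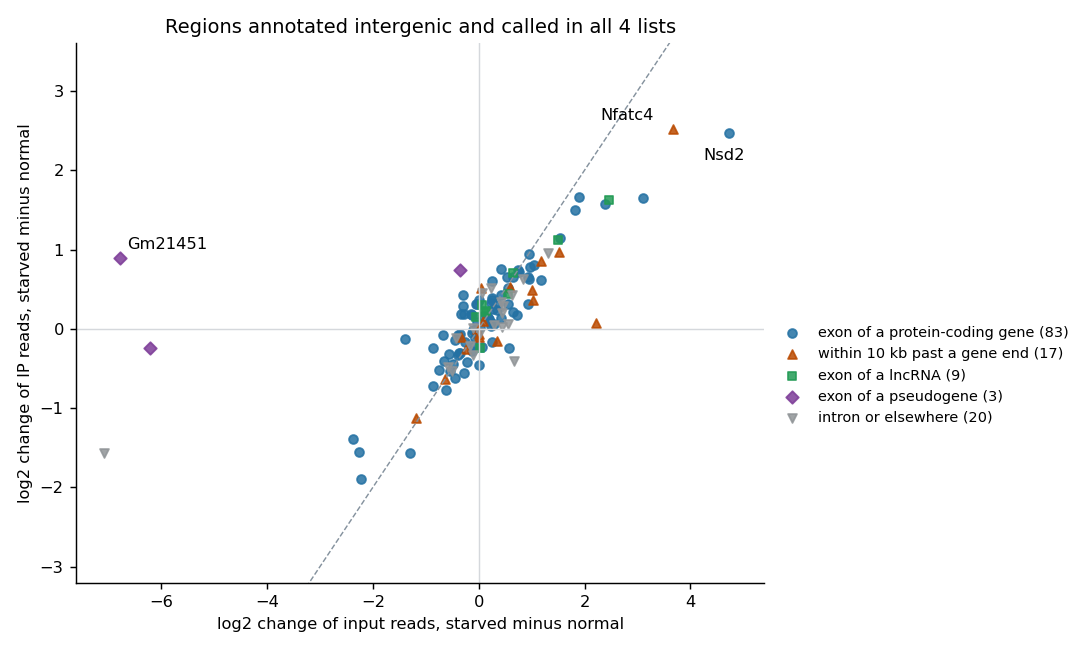
Log2 change of IP reads (vertical) against log2 change of input reads (horizontal), starved minus normal, by edgeR, for the 132 regions annotated intergenic and called in all 4 lists, with marks by place and the dashed line where both changes are equal. The Gm21451 region at the upper left has an IP change of 0.89 and an input change of −6.78, and the Nfatc4 and Nsd2 regions lie at the upper right below the dashed line.

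The median log2 change over the 132 regions was 0.14 for IP reads, 0.09 for input reads and −0.05 for the ratio, beside 0.01, 0.01 and −0.02 over all 6531 regions. IP reads had a positive change in 81 of the 132 regions (61.4%), against 51.0% of all regions. By group, the 44 regions on coding sequence had a median IP change of 0.17 with 31 positive, and the 38 on UTR alone had −0.06 with 18 positive. The 44 include the 12 Rnf213 and the 4 Ahnak2 regions given next. Regions of 1 gene are not independent, so the values of the 2 groups are a description. The 4 Ahnak2 regions had IP changes between 0.63 and 0.81 and input changes between 0.74 and 1.04, with edgeR adjusted p-values that did not pass 0.05. The 12 Rnf213 regions had a median IP change of 0.32 with 10 positive. The 13 regions with an ERV1 element at a peak center had positive changes in both the IP (0.05 to 1.62) and the input (0.07 to 2.46), and their ratio change had a median of −0.13. None of these groups was tested as a group. For 61 of the regions, the host gene (45 genes) had other regions with other annotations, called in all 4 lists as well. The IP change of a region ran with the median of its gene's other regions (r = 0.69 and rho = 0.71 over 61 regions), and so did the input change (r = 0.63), while the ratio change hardly did (r = 0.07). The regions share libraries and some share a gene, so these correlations are descriptions without a p. In the IP, 46 of the 61 regions had the sign of their gene.

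Regions called in both lists of 1 condition and in neither list of the other were few. Both starved lists and neither normal list held 50 of the 1374 regions (3.64%), against 4.7% of all regions, and both normal lists and neither starved list held 22 (1.60%), against 1.3%. In the starved lists, 3 of the 4 with the most IP reads lay on Gm21451. They had 2290 and 3246 IP reads beside 0 and 2 input reads (chr14:69448751-69449420), 4375 and 42 IP reads beside 721 and 7 input reads (chr14:69390751-69391230), and 3534 and 20 IP reads beside 707 and 1 input reads (chr14:69415431-69415960). The last 2 thus rested mainly on starved replicate 1. The fourth lay on Ahnak2 (chr12:112787731-112788270), with 402 and 269 IP reads. In the normal lists, the 4 with the most IP reads lay on Cd47 (chr16:49913821-49914770), the gene of a cell surface signal against engulfment, with 113 and 327 IP reads, on Lrrc8c (chr5:105612621-105613010), an anion channel subunit, with 110 and 95, on Zfp369 (chr13:65302651-65303290) with 50 and 147, and on Klf3 (chr5:64832261-64832710) with 107 and 56. The 50 regions had a median of 115 IP reads over the 2 lists and the 22 regions a median of 56.5, so most were small. On protein-coding exons lay 21 of the 50 and 13 of the 22.

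Neighbouring regions formed chains. With gaps of at most 5 kb, the 1374 regions fell into 741 chains, 478 of them of 1 region and 48 of 5 or more. The longest ran over 57.95 kb of Rnf213 (chr11:119402341-119460290) with 35 regions, 11 of them called in all 4 lists. It held 2120 and 6042 IP reads in normal and 6705 and 9828 in starved cells, beside 647 and 1855 input reads in normal and 992 and 1817 in starved cells. The second covered 16.18 kb of Ahnak2 (chr12:112772091-112788270) with 8 regions, and had 1863 and 2585 IP reads per kb in normal and 5592 and 4618 in starved cells. The third covered 16.04 kb of Zfp469 (chr8:122258391-122274430) with 4 regions, and had 2047 and 2950 IP reads per kb in normal and 4383 and 4735 in starved cells.

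Near-identical copies touched a minority of the 132 regions. A window of 200 bp at the center occurred once in the genome for 114 regions and more than once for 18, counting matches of at least 95% identity over at least 90% of the window. More than 5 copies were found for 13 regions, up to 256. The 2 densest Ahnak2 regions had 16 and 17 copies, all within 100 kb, as units repeated inside the gene itself. Of the 13 ERV1 regions, 9 had more than 1 copy. Where copies exist, reads of a region may come from another locus.

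GGAC was more frequent in these peaks than in the sequence beside them. In windows of 200 bp at the peak center, GGAC occurred on either strand in 79.6% and 76.7% of normal and 78.9% and 81.5% of starved peaks. In control windows 2 kb away that touched no kept peak and no GENCODE exon it occurred in 69.3% and 73.3% of normal and 71.7% and 72.3% of starved windows. The difference was 7.55 ± 3.03 points (SD, n = 4 lists), higher in 4 of 4 lists (exact sign-flip permutation test, p = 0.13, the smallest possible). The other peaks of the lists held GGAC in 80.6% ± 1.08 of windows. AATAAA occurred in 12.1% ± 2.55 of the peaks, 21.5% ± 0.771 of the control windows and 9.55% ± 0.975 of the other peaks. Its difference from the control windows was −9.36 ± 1.8 points, lower in 4 of 4 lists (exact sign-flip permutation test, p = 0.13). GC content moved with both motifs, at 51.4% in the peaks, 46.2% in the control windows and 53.4% in the other peaks, and its part in the difference was not tested. Windows on protein-coding exons held GGAC on the gene's strand in 53.7% ± 3.46 and on the other strand in 56% ± 4.59, with 0 of 4 lists higher on the gene's strand. AATAAA was on the gene's strand in 3.62% and on the other strand in 7.82% of them. Windows on lncRNA exons held GGAC on the gene's strand in 62.9% and on the other in 53.5%, higher in 4 of 4 lists over 197 windows. The 662 windows past gene ends held it in 51.5% on the gene's strand and 55.3% on the other, higher on the gene's strand in 1 of 4 lists. Both motifs overlap no other motif searched, and a match shows letters in a window and not a methylated site.

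**Figure D5:**
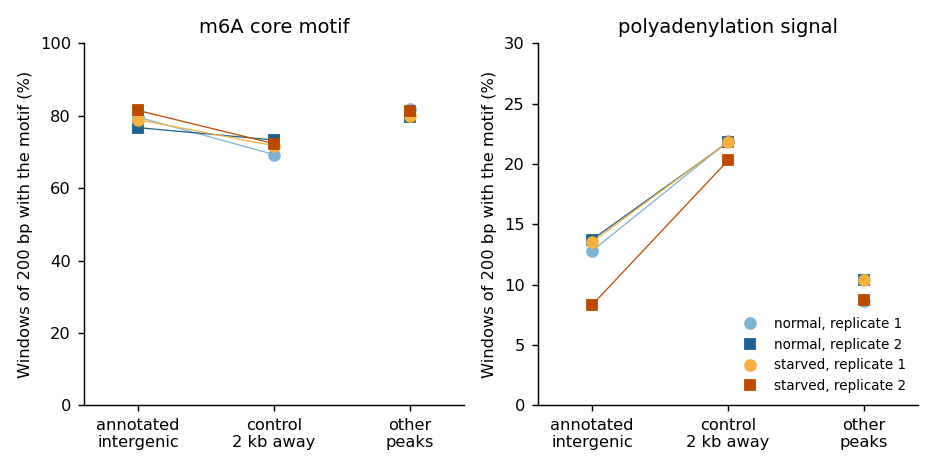
Share of 200 bp windows (%) with the m6A core motif GGAC (left) and the polyadenylation signal AATAAA (right) on either strand, at the centers of peaks annotated intergenic, in control windows 2 kb away and at the centers of the other peaks, with a point for each list. In every list GGAC was more frequent and AATAAA less frequent in the peaks than in the control windows.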

How the data were processed

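MEFs were profiled by RIP-seq with an antibody to YTHDF3, in 2 normal and 2 starved replicates, with an input each. Per the methods of the study and the submitters' processing notes, reads were trimmed with Trimmomatic, aligned to mm10 with TopHat2 2.0.13, and peaks of each IP library were called against an input with diffReps and annotated with HOMER. The values the authors deposited for 3 lists are a signal (the reads of a peak times a factor set per library), and those of normal replicate 2 are counts. Each deposited list also holds the log2 of the IP value over the input value, and p-values from diffReps. Dividing the signal by its factor gave whole numbers for 100% of the values (each within 0.006 of a whole multiple of the factor), and these reads were used as counts. Adjusted p-values of the lists were not used.

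The kept peaks pass the study's target thresholds (fold 2, p under 0.0001), with a floor of 3 input reads. Peaks that overlapped by 1 bp or more were merged into regions in Python. Reads of regions called in all 4 lists were summed over the called peaks and tested with edgeR 4.0.16 in R 4.3.3 (quasi-likelihood test, TMM, Benjamini-Hochberg over all 6531 regions) with DESeq2 1.42.0 beside it. The scripts were tested on simulated data. A called region moves with how much of it was called, so the covered length is given beside sums. Peaks were placed on GENCODE vM21 and RefSeq models of GRCm38, sequences came from RefSeq, and copies were searched with blastn 2.17.0. Other steps ran in Python 3.11.15 (scipy 1.17.1). A change is starved minus normal.

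The members and gene lists were chosen with earlier results of these data known. Regions were named by rule among the 132 called in all 4 lists: the 8 with the most IP reads per kb, the 5 with the highest lowest fold, the 3 with the largest fold change in both replicates in each direction and those that passed edgeR, besides the 4 largest regions of 1 condition in each direction and the 3 longest chains. Other genes named were chosen after their values were seen. Alternatives covered thresholds, floors, overlap, scaling, filters, tool, normalization, a replicate block, distances, windows and left-out replicates. MeRIP-seq of the study is not analysed here. 1 gene with many peaks is not reported here. The lists hold reads of called peaks alone, so depth is unknown, and errors cover these samples only.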

Additional observations from a re-analysis of the deposited data

How the results depend on the processing

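For the results that answer a comparison, 84 values under alternatives stayed within the spread between replicates or on their side of a threshold, and 20 moved. The sign-flip tests over the lists cannot pass 0.05, so their alternatives counted among the 84 unless the sign turned, even where the size of the difference moved. The count of 84 is therefore no measure of how stable those differences are. Among the 84, the share of peaks annotated intergenic changed sign: starved minus normal was −0.10 points, 0.24 at a stricter p threshold, and −0.47 to 0.26 with 1 replicate left out, 0.26 without replicate 2. The share of peaks on a GENCODE exon or past the end of any gene, peaks in introns included, was 81.7% within 5 kb and 91.4% within 20 kb. The counts of regions changed 1.8-fold were 0 higher and 0 lower with a fold of at least 4, where 16 regions were left, and 0 and 0 with a 50% reciprocal overlap. They were 5 and 5 at a fold change of 1.5, 1 lower at a fold change of 2 and 1 lower with reads summed over the region. With 1 replicate left out in both conditions they were 6 to 10 higher and 9 to 10 lower, since 1 pair alone then decides. The share over all regions was counted for the main rule alone, so nothing about the peaks as a class is read from these counts. The edgeR ratio count was 0 higher with at least 10 reads in every library, a filter that Gm21451 fails, and 1 to 2 with 1 list left out, the second being the other named Gm21451 region without normal replicate 1. DESeq2 gave 2 higher for IP reads, and 2 higher and 1 lower for input reads, with its calls over all regions not counted. Input reads had 0 to 1 lower with 1 list left out, Gm21451 without normal replicate 2 (edgeR adjusted p = 0.0459). Overlap between replicates needs both, so no replicate could be left out of it. The cause of the other moves was not tested.

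For single regions, 133 values kept theirs and 7 reversed, each an IP read change that did not pass the edgeR test, and all 7 with 1 list left out. Flna (−0.07) was 0.063 without normal replicate 1 and 0.045 without starved replicate 2, in a range down to −0.20. Kcnb2 (0.31) ranged from −0.29 without normal replicate 2 to 1.27, Pcdh1 (0.17) from −0.34 to 0.65 (−0.20 without normal replicate 2, −0.34 without starved replicate 1), Hs2st1 (0.36) from −0.077 without starved replicate 1 to 0.70, and Gm21451 at chr14:69459301-69459940 (−0.24) from −0.67 to 0.096 without starved replicate 2.

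The replicate numbers do not state a shared culture, and with 2 pairs pairing cannot be established. Differences of same-numbered lists ran together with r = 0.27 over 6531 regions and 0.38 over the 132. With a replicate block, edgeR gave 1 region higher and 0 lower in the ratio, 0 and 0 for IP reads and 0 and 0 for input reads, as without it. No call of this set depends on the block.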

Other observations

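The stretch from Synb to Entpd4b on chromosome 14 (chr14:69289344-69585520) held 9 and 9 peaks annotated intergenic in normal and 13 and 11 in starved cells. No peak with another annotation was kept there. Most of them, 8 and 8 in normal and 12 and 10 in starved cells, overlapped Gm21451. All peaks of the stretch held 5232 and 5122 IP reads in normal and 21486 and 10966 in starved cells, over 5.13, 4.75, 7.14 and 5.54 kb. Their input reads were 944 and 548 in normal and 1780 and 389 in starved cells, so the input groups overlapped while the IP groups did not. The share of these peaks with 3 or fewer input reads was 33.3% and 22.2% in normal and 30.8% and 63.6% in starved cells. The highest fold in each list was 131 and 262 in normal and 327 and 721 in starved cells. Windows of both named Gm21451 regions also occur on Loxl2, so no value here is given to a single gene.

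A region outside genes on chromosome 19 (chr19:5000081-5001040) had 17 and 16 input reads in normal and 0 and 0 in starved cells, with 102 and 55 IP reads in normal and 71 and 18 in starved cells. It was singled out after its values were seen, and did not pass edgeR in any of the 3 tests.

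L1_Mus1, a young LINE, was at the center of 22 peaks, with 452 and 759 IP reads in normal and 327 and 134 in starved cells. The 4 lists held 7, 8, 5 and 2 of these peaks. The number of LINE-centered peaks in all was 21 and 36 in normal and 33 and 26 in starved cells, and those groups overlapped. The IP reads of all L1 family peaks overlapped too, at 788 and 1488 in normal and 1463 and 1010 in starved cells. L1_Mus1 was singled out after its values were seen, and L1_Mus3 had 67 and 180 IP reads in normal and 313 and 182 in starved cells.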
